A study of Arabidopsis thaliana with 3 samples.

Results

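The genes examined here are the late embryogenesis abundant (LEA), dehydrin, cold-regulated, dehydration, seed storage and oleosin genes of *Arabidopsis thaliana* in a comparison of *dss1(I)* with WT seedlings under oxidative stress. They were chosen by words in the gene descriptions of the deposited table (late embryogenesis, dehydrin, cold-regulated, dehydration, drought, oleosin, seed storage and similar), or by the names *TSPO* and LEA, among rows whose transcription factor column is empty. That rule used no expression value and gave 30 genes of the 2762 in the table. The *dss1(I)* group was the homozygous CRISPR/Cas9 indel line dss1(I)del25, a single mutant line that the labels call a knockdown, and the WT group was Columbia-0. Seedlings of both groups were 14 days old when they were moved to 10 mM H2O2, and they were collected after 3 days. Neither group here was without H2O2, so the values compare genotypes under the treatment and not the treatment itself. Each group was 1 library, made from RNA of several independent experiments, and *dss1(V)* seedlings, the other genotype of the study, were not analysed here.

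Many LEA proteins, the dehydrins among them, are hydrophilic and largely unfolded. They build up in seeds as they dry and in leaves and roots during drought, salt or cold, where they protect membranes and enzymes. The hormone abscisic acid (ABA) turns many of these genes on: receptors that bind ABA block the clade A protein phosphatases 2C, which frees SnRK2 kinases to activate bZIP factors at ABA-responsive elements (ABRE) of promoters. Cold and drought also act through the CBF and DREB2 factors, which bind the dehydration-responsive element, also called the C-repeat (DRE/CRT). Oleosins coat the oil bodies of seeds, and cruciferins are seed storage proteins.

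The library totals behind the FPKM values were 11033843 reads for *dss1(I)* and 9394592 for WT. The table holds only genes that the authors called different, with 9.49% of the reads of *dss1(I)* and 10.7% of those of WT, so a gene outside it has no value here. The mutated gene *AtDSS1(I)*, which encodes a small acidic protein of the proteasome lid that also binds BRCA2, had 233 reads in *dss1(I)* against 807 in WT, a log2 ratio of -2.00 (-2.23 to -1.80), and its paralog *AtDSS1(V)* had 21 reads in *dss1(I)* against 73 in WT, a log2 ratio of -1.96 (-2.79 to -1.30). The log2 ratio is of *dss1(I)* over WT, on the log2(scaled count + 1) scale, where the scaled count is the read count brought to a common library size. The range after each ratio is the exact 95% Clopper-Pearson interval of the ratio of the scaled counts, which covers counting error only. With 1 library per genotype there is no replicate check, no test was made, and "lower" and "higher" below compare these 2 libraries.

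Of the 30 genes, 28 reached a scaled count of 10 in one of the libraries or both, and of these 22 were at least 2-fold lower and 6 at least 2-fold higher in *dss1(I)*. The table is made of called genes, and 99.2% of its 2620 genes that passed the same minimum were past 2-fold in one direction or the other, so that being past 2-fold says nothing about the 28. The direction can be set against the table: 78.6% of the 28 were lower against 51% of the table, and 21.4% were higher against 48.1%. Both lower shares depend on the scaling: with the median ratio of the table genes set to 1, 8 of 27 members (29.6%) were at least 2-fold lower against 11.1% of the table, and 6 were higher. As the table holds only called genes, its median lies at the edge of the lower calls. That scaling shifts log2 ratios up by 1.02, about the 2-fold threshold, so fewer lower calls are built into it. The median log2 ratio was -1.62 for the 28 genes and -1.02 for the table. At 4-fold, 9 of the 28 (32.1%) were lower against 12.3% of the table, and 4 (14.3%) were higher against 6.30%. The members held 0.0357% of the reads of *dss1(I)* and 0.107% of those of WT. In whole seedlings, fewer cells of a type and less RNA per cell cannot be told apart.

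The direction split by what the genes encode. All 18 LEA, dehydrin, cold-regulated, dehydration and *TSPO* genes that passed the minimum were lower in *dss1(I)*, with a median log2 ratio of -1.76. That set was not fixed in advance and joins the roles in which every such gene was lower. Its 18 of 18 therefore follows from how it was joined. Summed over all 19 such genes, the level was 161.2 FPKM (fragments per kilobase of gene, scaled to library total) in *dss1(I)* and 580.5 FPKM in WT. The 10 seed storage, oleosin and lipid-transfer genes that passed the minimum went both ways, with 4 lower and 6 higher.

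**Figure D1:**
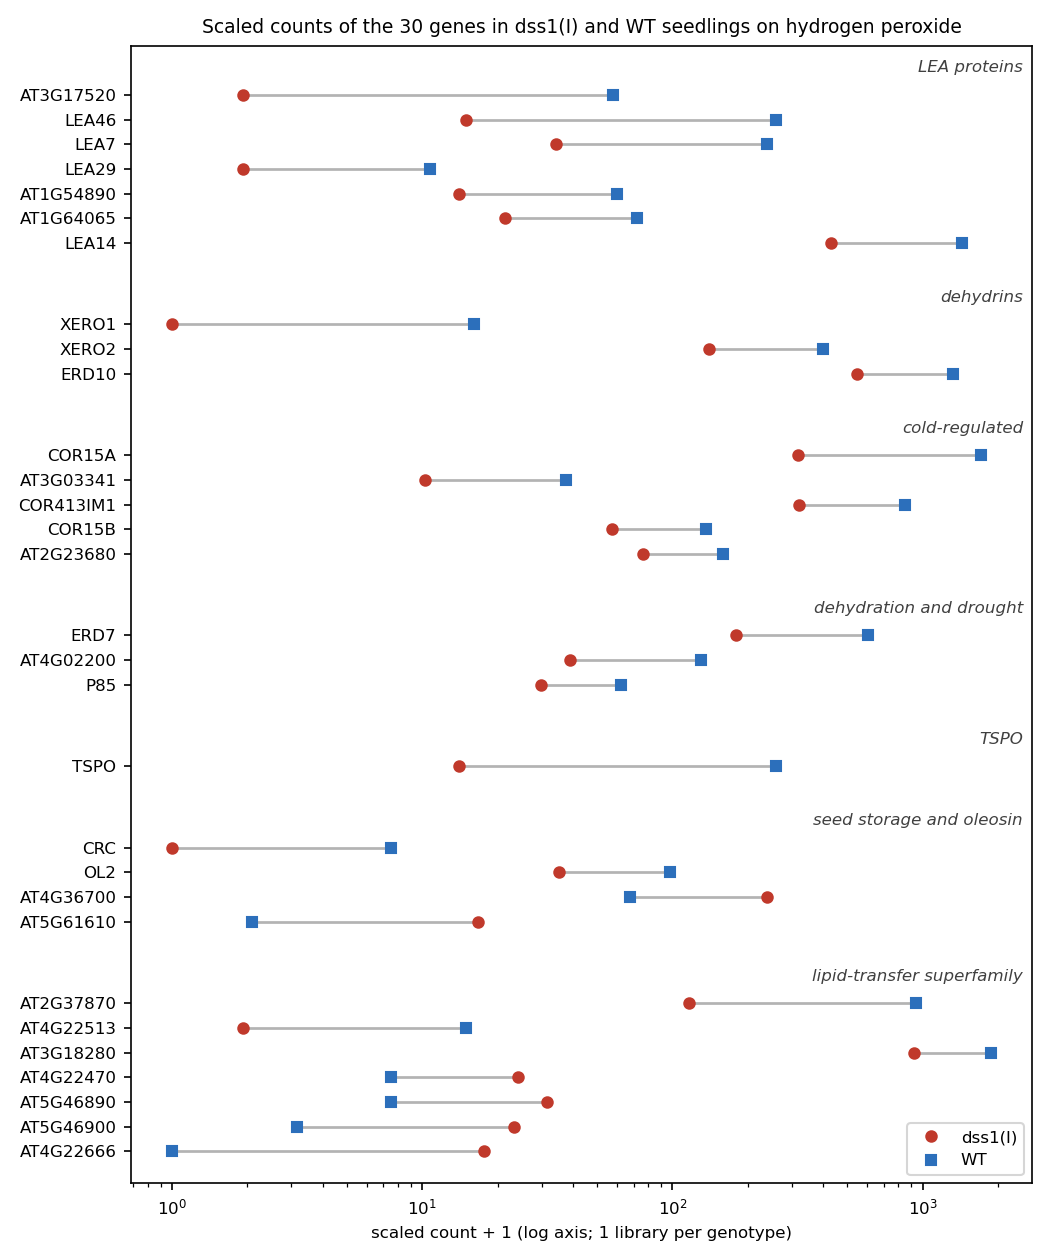
Scaled count plus 1 (log axis) of each of the 30 genes, grouped by role, with *dss1(I)* as circles and WT as squares, 1 library each. In all 19 LEA, dehydrin, cold-regulated, dehydration and *TSPO* genes the *dss1(I)* point lies left of the WT point, and 6 genes in the lower groups run the other way.

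Because the promoters of these genes are where ABA and cold signals are known to act, the bases just upstream of the annotated start are shown for 7 of the lower genes and 2 of the 6 higher genes, chosen as examples and not as typical of either direction. The sequences are from the TAIR10.1 assembly (RefSeq), read 5′ to 3′ on the strand of the gene and ending at the base before the start. Capitals mark ACGTGNC, the ABRE form searched, and CCGAC, the core of DRE/CRT, on either strand. The first set is from 3 LEA genes that hold both motifs: *AT3G17520* (chr3:6000448-6000667, minus strand), *LEA46* (chr5:2090431-2090640, minus strand) and *LEA7* (chr1:19619504-19619723, plus strand).
AT3G17520: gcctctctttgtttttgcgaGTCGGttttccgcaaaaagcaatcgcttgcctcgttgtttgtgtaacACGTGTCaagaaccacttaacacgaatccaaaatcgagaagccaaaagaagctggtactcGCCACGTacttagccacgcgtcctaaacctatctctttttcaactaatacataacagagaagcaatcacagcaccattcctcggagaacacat
LEA46: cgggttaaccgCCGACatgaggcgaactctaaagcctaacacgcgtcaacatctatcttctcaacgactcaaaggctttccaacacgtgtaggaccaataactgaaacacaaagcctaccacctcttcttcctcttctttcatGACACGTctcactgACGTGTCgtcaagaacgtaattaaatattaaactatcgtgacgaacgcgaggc
LEA7: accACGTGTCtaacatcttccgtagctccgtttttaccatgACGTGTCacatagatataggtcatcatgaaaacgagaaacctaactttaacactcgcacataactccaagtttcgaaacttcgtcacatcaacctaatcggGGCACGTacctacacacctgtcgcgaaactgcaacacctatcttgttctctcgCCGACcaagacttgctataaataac

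In *AT3G17520* the ABRE copies began 153 and 93 bases before the start and the CCGAC 200 bases before it. In *LEA46* the ABRE copies began 67 and 53 bases before the start and the CCGAC 199 bases before it. *LEA7* held 3 ABRE copies, 217, 179 and 78 bases before the start, and a CCGAC at 25 bases.

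The second set is from the neighbouring dehydrin genes *XERO1* (chr3:18941825-18941924, plus strand) and *XERO2* (chr3:18940523-18940642, plus strand), the cold gene *COR15A* (chr2:17712331-17712490, minus strand) and the dehydration gene *ERD7* (chr2:7757930-7758079, minus strand), and shows one or the other motif.
XERO1: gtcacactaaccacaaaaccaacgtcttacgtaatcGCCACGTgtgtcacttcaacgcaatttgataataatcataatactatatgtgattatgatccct
XERO2: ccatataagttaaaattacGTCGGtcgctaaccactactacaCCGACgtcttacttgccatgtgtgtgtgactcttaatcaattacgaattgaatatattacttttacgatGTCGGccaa
COR15A: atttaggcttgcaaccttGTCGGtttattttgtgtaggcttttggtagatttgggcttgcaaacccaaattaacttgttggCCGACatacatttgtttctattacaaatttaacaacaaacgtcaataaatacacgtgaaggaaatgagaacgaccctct
ERD7: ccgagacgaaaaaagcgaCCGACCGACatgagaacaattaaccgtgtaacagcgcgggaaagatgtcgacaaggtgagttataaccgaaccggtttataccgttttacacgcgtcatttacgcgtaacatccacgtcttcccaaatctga

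*XERO1* held an ABRE 64 bases before its start and no CCGAC in the stretch shown. *XERO2* held 3 CCGAC copies, at 101, 78 and 9 bases, *COR15A* held 2, at 142 and 79 bases, and *ERD7* held 2 that overlap by 1 base, at 132 and 128 bases. The third set is from lipid-transfer genes that were higher in *dss1(I)*, *AT5G46890* (chr5:19036939-19037088, minus strand) and *AT4G22666* (chr4:11916907-11917056, plus strand), and neither motif occurs in the stretch shown. Another higher gene, *AT4G36700*, whose promoter is not printed, held 2 ABRE copies and 1 CCGAC in the 300 bases searched.
AT5G46890: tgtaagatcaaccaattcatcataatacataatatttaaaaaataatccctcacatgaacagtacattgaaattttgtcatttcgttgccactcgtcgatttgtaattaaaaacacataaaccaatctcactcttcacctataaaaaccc
AT4G22666: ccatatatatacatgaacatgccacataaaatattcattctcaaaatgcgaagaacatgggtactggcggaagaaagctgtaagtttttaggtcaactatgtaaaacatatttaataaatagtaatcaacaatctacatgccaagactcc

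The LEA proteins had the lowest median of any group of more than 1 gene: 6 of 6 that passed the minimum were lower, with a median log2 ratio of -2.45 and a summed level of 38.9 FPKM in *dss1(I)* against 173.8 FPKM in WT over all 7. *AT3G17520*, an LEA family gene on the minus strand of chromosome 3 (5999174 to 6000447), had 1 read in *dss1(I)* against 53 in WT. Its log2 ratio was -4.92 (-11.28 to -3.40), the fourth lowest of the 2620 genes, and it fell to 0.0711 FPKM in *dss1(I)*, against 4.43 FPKM in WT. *LEA46* (AT5G06760, also LEA4-5), a group 4 LEA protein known from drying seeds and water deficit, had 15 reads in *dss1(I)* against 240 in WT, a log2 ratio of -4.12 (-5.08 to -3.47). In both genes nearly all reads came from the WT library.

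*LEA7* (AT1G52690) had 36 reads in *dss1(I)* against 220 in WT, a log2 ratio of -2.79 (-3.38 to -2.32). *AT1G54890* had 14 reads in *dss1(I)* against 55 in WT, with a log2 ratio of -2.11 (-3.15 to -1.33), and *AT1G64065* had 22 and 66 reads in *dss1(I)* and WT, with -1.75 (-2.57 to -1.09). *LEA14* (AT1G01470) was the best covered of the group, with 465 reads (31.3 FPKM) in *dss1(I)* and 1327 reads (104.8 FPKM) in WT, a log2 ratio of -1.73 (-1.89 to -1.58). *LEA14* had the ratio nearest to 0 among the LEA genes, though its interval overlaps those of *AT1G54890* and *AT1G64065*. *LEA29* (AT3G15670) had 1 read in *dss1(I)* against 9 in WT and lay under the minimum.

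The dehydrins, the LEA family with lysine-rich segments that bind membranes, were lower in 3 of 3 genes, with a median log2 ratio of -1.52 and summed levels of 46.9 FPKM in *dss1(I)* and 123.1 FPKM in WT. *ERD10* (AT1G20450, early responsive to dehydration) had 589 reads (32.9 FPKM) in *dss1(I)* against 1224 (80.2 FPKM) in WT, a log2 ratio of -1.27 (-1.42 to -1.13). *XERO2* (AT3G50970, also LTI30), a cold- and ABA-induced dehydrin, had 150 reads in *dss1(I)* against 371 in WT, a log2 ratio of -1.52 (-1.81 to -1.25). *XERO1* (AT3G50980), 313 bases downstream of *XERO2* on the same strand, had 0 reads in *dss1(I)* against 14 in WT. Set against a floor of 3 reads in the *dss1(I)* library, it was at least 5.43-fold lower.

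All 5 cold-regulated genes were lower, with a median log2 ratio of -1.40 and summed levels of 60.7 FPKM in *dss1(I)* and 214.9 FPKM in WT. *COR15A* (AT2G42540), a chloroplast protein that stabilises membranes during freezing, had 341 reads (19.5 FPKM) in *dss1(I)* and 1587 reads (106.6 FPKM) in WT, a log2 ratio of -2.43 (-2.61 to -2.27). Its tandem copy *COR15B* (AT2G42530), whose start lies 7 bases from the end of *COR15A* on the same strand, had 61 reads in *dss1(I)* against 125 in WT, a log2 ratio of -1.24 (-1.72 to -0.80). The intervals of the copies do not overlap, so within these libraries the fall of *COR15A* was the larger.

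*COR413IM1* (AT1G29395), a cold-induced protein of the chloroplast inner envelope, had 346 reads (30.7 FPKM) in *dss1(I)* and 786 reads (81.9 FPKM) in WT, a log2 ratio of -1.40 (-1.59 to -1.22). The related *AT2G23680* had 81 reads in *dss1(I)* against 147 in WT, with -1.07 (-1.49 to -0.68), and *AT3G03341* had 10 reads in *dss1(I)* against 34 in WT, with -1.88 (-3.17 to -0.93).

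The dehydration and drought genes were lower in 3 of 3. *ERD7* (AT2G17840), named for its early response to drying, had 192 reads (9.13 FPKM) in *dss1(I)* and 561 reads (31.3 FPKM) in WT, a log2 ratio of -1.76 (-2.01 to -1.53). *AT4G02200*, of a drought-responsive family, had 41 reads in *dss1(I)* against 120 in WT, with -1.74 (-2.32 to -1.24). *P85* (AT4G35985) had 31 reads in *dss1(I)* against 57 in WT, with -1.07 (-1.78 to -0.44), so its interval includes changes smaller than 2-fold. Other members share this limit: 20 of the 28 had an interval wholly past 2-fold. *TSPO* (AT2G47770), an ABA- and stress-induced membrane protein that binds haem and is removed by autophagy, had 14 reads (1.22 FPKM) in *dss1(I)* and 239 reads (24.4 FPKM) in WT. Its log2 ratio of -4.21 (-5.20 to -3.54) was close to that of *LEA46* and its rank was 13 from the lowest of the 2620 genes.

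The seed storage and oleosin genes did not share a direction. *OL2* (AT3G27660), an oleosin of seed oil bodies, had 37 reads in *dss1(I)* against 90 in WT, a log2 ratio of -1.47 (-2.09 to -0.93). The cruciferin gene *CRC* (AT4G28520) had 0 reads in *dss1(I)* against 6 in WT and lay under the minimum. *AT4G36700*, described as a cupin or vicilin-like protein, had 257 reads (12.6 FPKM) in *dss1(I)* and 62 reads (3.58 FPKM) in WT, a log2 ratio of 1.82 (1.43 to 2.26). *AT5G61610*, of the oleosin family, had 17 reads in *dss1(I)* against 1 in WT, with 3.01 (1.20 to 9.26).

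The 7 genes of the lipid-transfer superfamily entered only because their description names seed storage albumins. Of these, 3 were lower and 4 higher in *dss1(I)*. *AT3G18280* had the highest level of all 30 genes, with 994 reads (128.1 FPKM) in *dss1(I)* and 1740 reads (263.5 FPKM) in WT, a log2 ratio of -1.02 (-1.14 to -0.91). *AT2G37870* had 125 reads (17.6 FPKM) in *dss1(I)* and 870 reads (144.0 FPKM) in WT, with -3.01 (-3.30 to -2.74), and *AT4G22513* had 1 read in *dss1(I)* against 13 in WT. The 4 higher genes were all sparsely read.

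*AT5G46890* had 33 reads in *dss1(I)* against 6 in WT, a log2 ratio of 2.08 (0.97 to 3.79). *AT5G46900*, 2762 bases away, had 24 reads in *dss1(I)* against 2 in WT, with 2.88 (1.36 to 6.49). *AT4G22470* had 25 reads in *dss1(I)* against 6 in WT, with 1.69 (0.52 to 3.42), and *AT4G22666*, with 18 reads in *dss1(I)* against 0 in WT, was at least 5.16-fold higher against a floor of 3 reads in WT.

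Some members cannot be counted cleanly. Overlap with a gene on the other strand was found for 6 members (*LEA7*, *COR15B*, *AT3G03341*, *AT4G02200*, *AT4G22470* and *AT4G22513*), and whether the counting used strand is not given in the sources used here, so reads of the partners cannot be told apart. Exact 50-base stretches shared with another gene's transcript, on either strand, occurred in 7 members. They covered 86.6% of *AT4G22470*, 58.2% of *AT4G22513*, 48.2% of *AT4G02200*, 27.3% of *COR15B*, 26.8% of *AT5G46890*, 22.5% of *AT5G46900* and 1.03% of *COR413IM1*. For *AT4G22470*, *AT4G02200* and *COR15B* the partner was an overlapping gene itself, so the sharing is the same overlap. *AT4G22513* shared with its overlapping gene and with *AT4G22517*. *AT5G46890* and *AT5G46900* shared with each other, and *COR413IM1* with *AT1G29390*. Among members with neither, 16 of the 19 that passed the minimum were lower (84.2%, against 51.0% of the table) and 3 higher. For all 28 genes, an average of 81.7% of genes of similar length were lower, as described next.

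The direction of the calls in this table goes with gene length, and the members are short, with a median of 1166 bp against 1703 bp for the table. Each of the 28 genes was therefore set beside the 20 non-member genes nearest in length on either side. On average 81.7% of those 40 neighbours were lower in *dss1(I)*, close to the 78.6% of the members, so the share of lower genes among all 28 is near that of genes of their length. The median log2 ratio was -1.62 for the members and -1.33 for their neighbours, and 19 of 28 members lay below the median of their own neighbours.

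For the LEA, dehydrin, cold-regulated, dehydration and *TSPO* genes, 18 of 18 were lower against 79.3% of their neighbours, and 16 of 18 lay below their neighbours' median. As the set joins wholly lower roles, its 18 of 18 was fixed by the grouping. The exceptions were *COR15B* and *AT2G23680*, and *COR413IM1* (-1.40 against a neighbour median of -1.38) and *ERD10* (-1.27 against -1.27) lay close to it. *AT3G17520*, *LEA46* and *TSPO* lay below all 40 of their neighbours. *XERO1* did too (-4.01), but with 0 reads in *dss1(I)* its ratio is set by the pseudocount. The lipid-transfer genes went the other way, with 42.9% lower against 91.8% of their neighbours, and the seed storage and oleosin genes had 33.3% lower against 72.5%. The part of gene length in these differences was not tested.

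**Figure D2:**
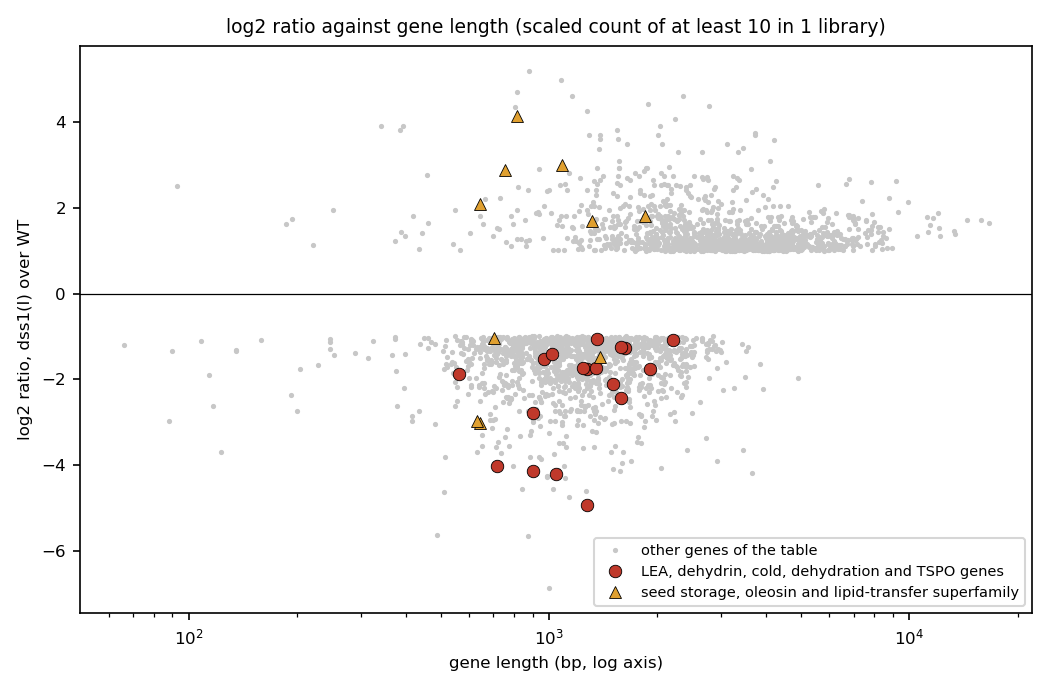
log2 ratio of *dss1(I)* over WT against gene length in bp (log axis) for genes that reached a scaled count of 10, with the LEA, dehydrin, cold-regulated, dehydration and *TSPO* genes as circles, the seed storage, oleosin and lipid-transfer genes as triangles and other genes of the table as dots. The 18 circles all lie below 0, and 6 triangles lie above 0. Most circles lie at lengths where most dots are below 0 too. The exceptions are *ERD7* (1905 bp, 50% of its length neighbours lower) and *P85* (2209 bp, 30%).

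In TAIR10.1, 75% of the lower members and 66.7% of the higher members have at most 2 exons, against 56.0% of the other lower genes and 29.3% of the other higher genes of the table. The median GC content of the transcripts was 40.4% for the lower members and 41.4% for the higher members, against 40.3% for the other lower genes and 41.9% for the other higher genes.

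The rest of the ABA and cold pathway was read from a list of 82 genes, of which 30 are in the table and 9 are also members. That list was chosen with earlier results of these data known, so its counts are not independent of them. Of the 21 that are not members, 20 passed the minimum, and 19 were lower and 1 higher, with a median log2 ratio of -2.12. These genes are longer than the members, and on average 55.9% of their length neighbours were lower. The other 52 genes of the list have no value here, among them all 14 ABA receptors, all 3 SnRK2 kinases and both transporters of the list.

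At the level of the hormone, *NCED3*, the enzyme that limits ABA synthesis in drying leaves, had 26 reads in *dss1(I)* against 237 in WT, a log2 ratio of -3.35 (-4.05 to -2.82). It was the only one of 10 biosynthesis genes in the table. Of the ABA 8′-hydroxylases, which break ABA down, *CYP707A3* had 9 reads in *dss1(I)* against 145 in WT (-4.07) and *CYP707A2* had 10 and 26 reads in *dss1(I)* and WT (-1.50). *CYP707A4* was the single gene of the list that was higher, with 40 reads in *dss1(I)* against 10 in WT, a log2 ratio of 1.69 (0.76 to 2.95).

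The clade A phosphatases 2C hold ABA signalling back and are themselves induced by ABA. Of 9 listed, 6 are in the table and all 6 were lower, against 51% of the table. *AHG3* had 670 reads in *dss1(I)* against 2593 in WT (-2.17), and *HAI1* had 116 reads in *dss1(I)* against 434 in WT (-2.11). *HAI2* had 39 reads in *dss1(I)* against 150 in WT (-2.13), and *HAI3* had 3 reads in *dss1(I)* against 28 in WT (-3.05). *ABI1* (610 reads in *dss1(I)*, 1335 in WT, -1.35) and *ABI2* (146 in *dss1(I)*, 312 in WT, -1.31) had the ratios nearest to 0 of the 6.

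Of the 12 transcription factors listed, 4 are in the table, and the other 8 have no value here. The cold factor *CBF2* had 4 reads in *dss1(I)* against 82 in WT (-4.25), and *CBF1* had 0 reads in *dss1(I)* against 8 in WT, under the minimum. *RD26*, a NAC factor of the drought response, had 260 reads in *dss1(I)* against 639 in WT (-1.51), and *DREB2A* had 60 reads in *dss1(I)* against 115 in WT (-1.14). Of the 26 responsive genes listed, members among them, 16 are in the table and all 16 were lower, against 51% of the table. The other 10 have no value here. The 16 are short, with a median of 1067 bp against 1703 bp for the table, and as a class they were not set beside length neighbours. The dehydrin *RAB18* had 123 reads in *dss1(I)* against 892 in WT (-3.06), *RD29B* had 14 in *dss1(I)* against 90 in WT (-2.81), and *RD29A* had 128 in *dss1(I)* against 232 in WT (-1.07). *KIN2* had 172 reads in *dss1(I)* against 651 in WT (-2.13), and *RD22*, the listed gene with the highest level in the table, had 267.5 FPKM in *dss1(I)* and 661.4 FPKM in WT (-1.29).

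**Figure D3:**
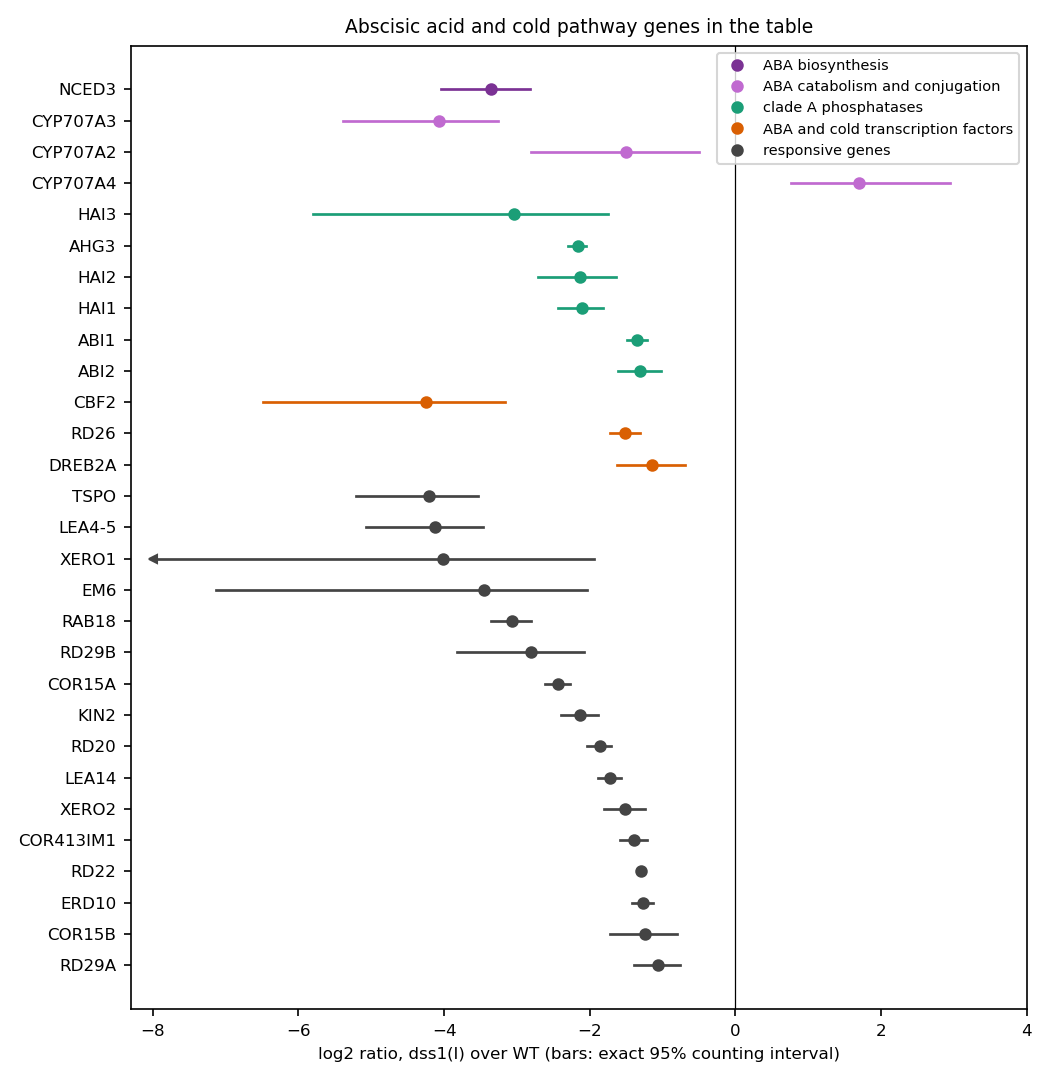
log2 ratio of *dss1(I)* over WT for the 29 ABA and cold genes of the list that passed the minimum, coloured by class, with exact 95% counting intervals as bars and an arrow where the interval has no lower end; LEA4-5 is *LEA46*, and the point of *XERO1*, with 0 reads in *dss1(I)*, is set by the pseudocount. All points but *CYP707A4* lie left of 0, from -4.25 for *CBF2* to -1.07 for *RD29A*.

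Markers of organs and seeds were mostly outside the table. None of 6 leaf markers and 1 of 6 root markers were in it, *SCR*, with 260 reads in *dss1(I)* against 95 in WT (1.23). Of 10 seed markers, *CRC* and *OL2* were in it, both lower. The part of organ composition in the differences was not tested.

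In 300 bases of promoter, from 250 before to 50 after the start and on either strand, ACGTGNC occurred in 7 of the 19 LEA, dehydrin, cold-regulated, dehydration and *TSPO* genes (36.8%). Among the other genes of the table it occurred in 14.6% of lower and 8.15% of higher genes, and among all 27443 annotated protein-coding genes in 10.3%. CCGAC occurred in 11 of the 19 (57.9%), against 15.8% of the other lower genes, 16.8% of the other higher genes and 15.0% of all protein-coding genes. At least one of the motifs was present in 63.2% of the 19 genes against 23.1% of all protein-coding genes, and both in 31.6% against 2.2%. The 19 genes are the set joined from wholly lower roles. Over all 30 members, ACGTGNC occurred in 30% and CCGAC in 40%.

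The seed storage, oleosin and lipid-transfer genes held ACGTGNC in 18.2% (2 of 11) and CCGAC in 9.09% (1 of 11). The 21 ABA and cold genes that are not members had the opposite balance to the LEA and cold genes, with ACGTGNC in 57.1% and CCGAC in 19.0%. The 3 members with the lowest ratios (*AT3G17520*, *TSPO* and *LEA46*) and *XERO1*, with 0 reads in *dss1(I)*, held ACGTGNC. The next lowest, *AT2G37870* (-3.01) and *AT4G22513* (-2.97), held neither motif, and *AT4G36700*, which was higher (1.82), held both. The shorter ABRE core ACGTG occurred in 15 of 24 lower members (62.5%) and in 4 of 6 higher members (66.7%). *XERO2*, *COR15A* and *ERD7* held CCGAC without ACGTGNC in the stretches printed above. These letters describe the sequence and do not show that a factor binds there.

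**Figure D4:**
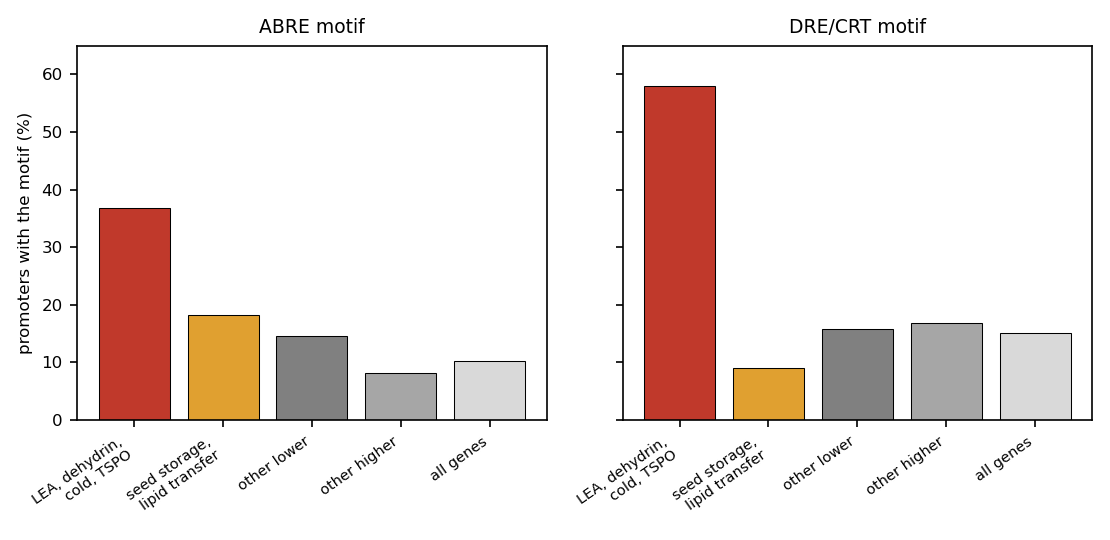
Share of promoters (%) with ACGTGNC (ABRE, left) and CCGAC (DRE/CRT, right) in 300 bases around the start, for the 19 LEA, dehydrin, cold-regulated, dehydration and *TSPO* genes, the 11 seed storage, oleosin and lipid-transfer genes, the other lower and other higher genes of the table and all protein-coding genes. The first bar is the tallest in both panels, at 36.8% and 57.9%.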

How the data were processed

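Poly-A RNA of *dss1(I)* and WT seedlings was sequenced as 1 library each. The authors used fastp to filter reads, HISAT2 to align these to TAIR10 and featureCounts for counting. The deposited read counts are raw whole numbers. The deposited scaled counts, a signal the authors made in edgeR, are counts at a common library size. The authors computed the FPKM values from count, gene length and library total. The log2 fold changes and the p-values in the deposited table, with their adjusted values, come from the authors' edgeR comparison and were not used. The table holds only called genes. All per-sample columns could be mapped, leaving 0 unused.

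A pseudocount of 1 was added to scaled counts before the log2 ratio was taken, over genes that reached a scaled count of 10 in one of the libraries or both. The transcription factor column holds protein domains, so the rule left out 19 genes with matching words, all described phosphatases 2C among them. Genes at 0 reads were bounded with a floor of 3 reads. Intervals cover counting error only, since reads are not independent molecules. The totals of 11033843 (*dss1(I)*) and 9394592 (WT) reads set the precision. Genes named were the 12 largest falls, all 6 rises, the 5 highest in FPKM and members in the pathway lists. Other members were named in their role. The members and lists were chosen with earlier results of these data known. All 30 members had the same start and end in the TAIR10.1 annotation (RefSeq). Alternatives were other pseudocounts, scalings, minimums, thresholds, member sets and motif forms. The ratio computation was tested on simulated data. Calculations ran in Python 3.11.15 (matplotlib 3.10.9, scipy 1.17.1, pandas 2.3.3, numpy 2.4.6).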

Additional observations from a re-analysis of the deposited data

How the results depend on the processing

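The sign of the log2 ratio was kept in 28 of 28 members under other pseudocounts and scalings. Scaling to the median ratio of all table genes shifts log2 ratios up by 1.02 before the pseudocount, and by less in sparsely read genes (*XERO1* moved to -3.53, against -4.01). As the table holds only called genes, its median lies at the edge of the lower calls, so fewer lower calls are built into this scaling. It gave 8 lower members (29.6%, against 11.1% of the table) and 6 higher. The member median was -0.50, 22.2% of length neighbours were lower, and *AT3G18280* came to -0.00. With a scaled count of at least 50, 19 were lower (95%, against 49.5% of the table) and 1 higher. At a log2 threshold of 2, 9 were lower (32.1%, against 12.3% of the table) and 4 higher. Of the ABA and cold list, 15 of 29 were lower at that threshold and 0 higher. Keeping rows with a domain gave 39 lower (83.0%, against 51.0% of the table) and 8 higher. The joined set of LEA, dehydrin, cold-regulated, dehydration and *TSPO* genes was not fixed in advance. Some settings were chosen after seeing the data. One left out the lipid-transfer superfamily, with 19 lower (90.5%, against 51.0% of the table) and 2 higher. Another left out members that overlap or share sequence, with 16 lower (84.2%, against 51.0% of the table) and 3 higher. The window of 500 bases before the start codon, also chosen then, held CCGAC in 60% of members (23.4% of all protein-coding genes). The shorter motif ACGTG occurred in 63.3% of member promoters (26.7% of all protein-coding genes) and the longer NCCGACNT in 16.7% (4.47%). Lowering the pseudocount or removing the minimum left the counts within 1.5 times. The search for a dehydrin segment in proteins was not run. No paired analysis was possible because the genotypes have 1 library each, and no replicate could be left out. Members with under 20 reads in both libraries have ratios limited by depth.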

Other observations

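Among the 19 genes whose description held the words but whose transcription factor column named a protein domain, 17 were lower (89.5%, against 51% of the table) and 2 higher in *dss1(I)*. They were not set beside genes of similar length. Several were already counted in the ABA and cold list, among them *ABI1*, *AHG3*, *HAI1*, *HAI2*, *CYP707A2*, *CYP707A3* and *DREB2A*. All 4 AP2 factors were lower, among them *DREB1F* with 0 reads in *dss1(I)* against 24 in WT, *DREB1E* with 0 reads in *dss1(I)* against 21 in WT, and *DREB3* with 5 reads in *dss1(I)* against 20 in WT. These belong to the family of factors that bind DRE/CRT. The 4 C2-domain genes of the CAR family, which in *Arabidopsis* bring ABA receptors to membranes, were lower too: *CAR7* had 410 reads in *dss1(I)* against 908 in WT (log2 ratio -1.36), and *CAR8* had 70 in *dss1(I)* against 187 in WT (-1.62). Of the 8 phosphatase 2C genes, 6 were lower, and the 2 that were higher were *AT2G20050* (1.13) and *PLL2*, with 12 reads in *dss1(I)* against 1 in WT (2.54).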
